A study of Homo sapiens with 4 samples.

Results

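The envelope genes of the epidermal differentiation complex are a cluster on chromosome 1, named for the many members whose products build the cornified envelope; not all members do, PGLYRP3, PGLYRP4 and SMCP among them. Members were taken by gene symbol, as the LCE and SPRR genes together with involucrin (IVL), loricrin (LORICRIN), the filaggrin-type genes, the peptidoglycan recognition genes PGLYRP3 and PGLYRP4, and SMCP, KPRP, LELP1 and CRCT1. The rule left out the S100 genes. It found 36 measured genes, in 37 rows of the array, among 15073 named genes. Of the 46 genes that fit the rule in the RefSeq gene table, 10 had no row and were not analysed here (FLG2, LCE1E, LCE2A, LCE2D, LCE5A, LCE7A, SPRR2A, SPRR2G, SPRR5 and TCHHL1).

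The cells were CAL-27, an established cell line from a human squamous carcinoma of the tongue. Cisplatin-resistant CAL-27 cells, derived by exposure to cisplatin at 1e-07 M rising to 1e-05 M, were compared with parental CAL-27 cells, with 2 arrays per group which the study's design calls biological replicates. Cisplatin is a platinum drug that crosslinks DNA. Both groups were grown in the same medium with serum; the labels do not say whether the resistant cells were a single clone, or whether the drug was present at harvest. Values are log2 normalized intensities from 1-colour arrays, with array medians of 7.22 and 7.23 in resistant cells and 7.14 and 7.16 in parental cells. With so few arrays the precision is limited, and the p-values measure only the spread between these arrays.

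The cornified envelope is a protein shell laid down under the membrane of squamous cells late in their differentiation. Involucrin and envoplakin form a scaffold, loricrin and the small proline-rich (SPRR) proteins are added to it, and transglutaminases crosslink them. The late cornified envelope (LCE) proteins are incorporated last, in the outermost layers of the epidermis, and filaggrin and its relatives, large proteins that begin with an S100-type calcium-binding domain, bind keratin filaments or reinforce the envelope. In mucosal epithelia such as that of the tongue, SPRR proteins and involucrin are known components of the suprabasal cells.

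In the cisplatin-resistant cells, 10 of the 36 envelope genes fell and 0 rose, by limma's moderated test with Benjamini-Hochberg adjustment over all 15073 genes at a threshold of 0.05. Over all genes, 2.83% fell and 3.26% rose, 6.1% in either direction. The 10 were SPRR1A, SPRR1B, SPRR3, SPRR2E, SPRR2D, SPRR2B, SPRR2F, IVL, PGLYRP3 and RPTN, with differences of -9.51 to -2.43 on the log2 scale. At an unadjusted p under 0.05, 14 members were lower and 1 (LCE1C) was higher, beside 2170 lower and 2080 higher of the 15073 genes. The median difference of the 36 members was -0.69, with quartiles of -2.71 and 0.06, beside -0.03, with quartiles of -0.49 and 0.48, over all genes. The members' median was -0.41 without resistant replicate 2, -0.36 with 50 added to each intensity, and -3.04 over the 16 members left without dim rows. Both resistant arrays lay below both parental arrays for 16 members and above them for 2, while 18 overlapped; over all genes the shares are 31% below and 27.9% above.

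The calls depend on how the spread between arrays is modelled. With all 42152 rows tested together, limma called 0 rows of the whole table, and so 0 of the 37 member rows (smallest adjusted p = 0.0606 over all rows). At an unadjusted p under 0.05, 15 member rows were lower and 0 higher, beside 7896 of all rows in either direction. An unmoderated test of each gene with unequal variances called 0 of all genes after adjustment, so its 0 says nothing of single lists. Before adjustment it had 7 members lower and 0 higher, beside 1086 lower and 918 higher of the 15073 genes. With a prior variance that follows the mean intensity, called the intensity prior here, 12 members fell, the further ones being FLG and SPRR2C, and 0 rose, beside 11.5% of all genes lower and 9.93% higher. By row that prior gave 12 member rows lower and 0 higher, beside 4.48% of all rows lower and 4.92% higher. These rows are not the same 12 genes, since both SPRR3 rows are among them and FLG is not (adjusted p = 0.0966 over all rows). With any 1 of the 4 arrays left out a group has a lone array. Limma's calls were then lost over all genes, and calls with the intensity prior are not counted here. The median difference of the members lay between -0.87 and -0.41 in these fits.

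**Figure D1:**
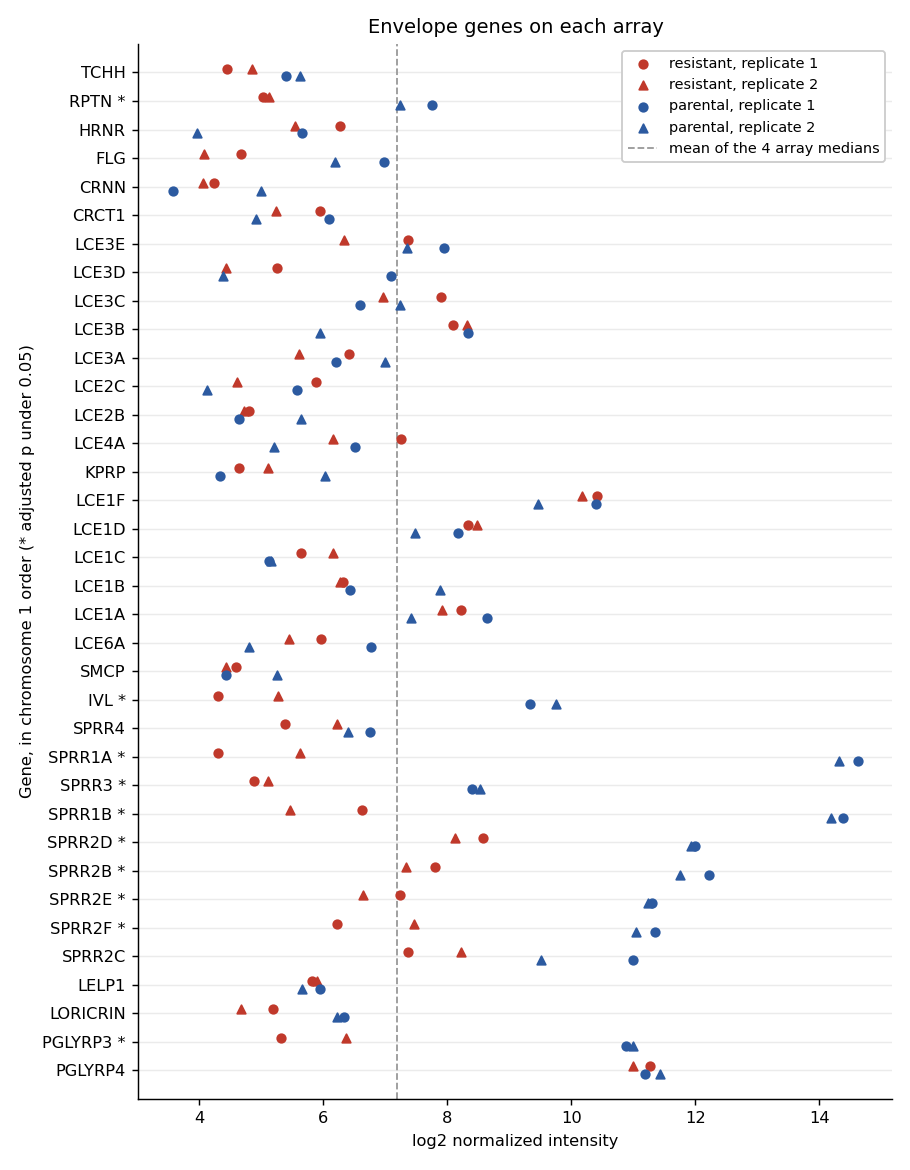
Log2 normalized intensity of the 36 envelope genes on each of the 4 arrays (x axis), with genes in their order on chromosome 1 from top to bottom; red marks are resistant arrays, blue marks parental arrays, the dashed line is the mean of the 4 array medians (7.19), and an asterisk marks an adjusted p under 0.05. The marks of the 2 groups lie far apart for IVL, most SPRR genes and PGLYRP3, and intermingle for most LCE genes.

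To show the regulatory sequence next to the genes that moved, the 250 bases before the start were read from RefSeq promoters (build GRCh38.p14) for 5 envelope genes: the 4 that fell, have an AP-1 motif and have a start that matches the annotated gene start, and LORICRIN, the 1 member with that motif that did not pass. AP-1 is the dimer of JUN and FOS proteins, a known regulator of envelope genes in keratinocytes. Capitals mark the AP-1 motif (TGAGTCA, or its complement TGACTCA) and the TATA motif (TATAAA, or TTTATA), searched on both strands.
SPRR1A, chr1:152983831-152984080, plus strand: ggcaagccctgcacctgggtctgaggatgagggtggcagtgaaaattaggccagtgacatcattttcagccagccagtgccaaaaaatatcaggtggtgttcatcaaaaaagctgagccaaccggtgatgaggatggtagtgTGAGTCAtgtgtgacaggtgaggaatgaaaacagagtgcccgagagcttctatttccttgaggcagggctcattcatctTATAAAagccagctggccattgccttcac
SPRR1B, chr1:153030953-153031202, plus strand: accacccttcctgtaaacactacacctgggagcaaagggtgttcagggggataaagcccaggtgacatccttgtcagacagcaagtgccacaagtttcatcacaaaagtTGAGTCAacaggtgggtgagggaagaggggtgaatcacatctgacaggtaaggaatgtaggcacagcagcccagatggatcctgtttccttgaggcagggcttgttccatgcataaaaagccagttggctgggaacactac
SPRR3, chr1:153001499-153001748, plus strand: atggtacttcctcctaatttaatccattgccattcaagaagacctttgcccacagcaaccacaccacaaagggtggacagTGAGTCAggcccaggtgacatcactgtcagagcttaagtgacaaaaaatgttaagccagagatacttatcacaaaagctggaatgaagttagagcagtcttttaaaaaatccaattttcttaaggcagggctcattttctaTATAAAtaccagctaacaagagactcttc
IVL, chr1:152908296-152908545, plus strand: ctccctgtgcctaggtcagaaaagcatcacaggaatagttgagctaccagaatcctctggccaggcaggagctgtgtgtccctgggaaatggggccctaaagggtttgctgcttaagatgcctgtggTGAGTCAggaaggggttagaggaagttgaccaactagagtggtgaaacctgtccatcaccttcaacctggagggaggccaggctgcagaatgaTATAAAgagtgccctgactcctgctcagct
LORICRIN, chr1:153259437-153259686, plus strand: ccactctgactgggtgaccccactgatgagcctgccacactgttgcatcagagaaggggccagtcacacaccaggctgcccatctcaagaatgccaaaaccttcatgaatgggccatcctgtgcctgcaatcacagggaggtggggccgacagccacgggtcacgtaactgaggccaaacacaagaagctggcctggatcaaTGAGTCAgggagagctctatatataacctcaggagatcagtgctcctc

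The motif ended between 102 and 164 bases before the start in SPRR1A, SPRR1B, SPRR3 and IVL, and 42 bases before it in LORICRIN. The promoter table held 31 of the 36 members. Of 8 members that fell and were in the table, 5 had the AP-1 motif (SPRR2F was the fifth), as did 1 of the 23 members that did not pass and 4.16% of all 27305 promoters. Apart from IVL the 5 are SPRR genes, a family of related sequence, so their matches are not independent. The TATA motif was in 6 of the 8, in 10 of the 23 and in 11.1% of all promoters, and in most of these members it ended 24 to 26 bases before the start. For SPRR2B, SPRR2F, SPRR4 and LCE4A the start in the table differs from the annotated gene start. From the window start to the annotated gene start they have -15938, -5702, -1648 and -637 bases, where a match has 250. SPRR2F is counted under both motifs and SPRR2B under TATA, so these matches lie far from the annotated starts. The motifs were chosen with the members' values known, and a match describes the letters, not a bound site.

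**Figure D2:**
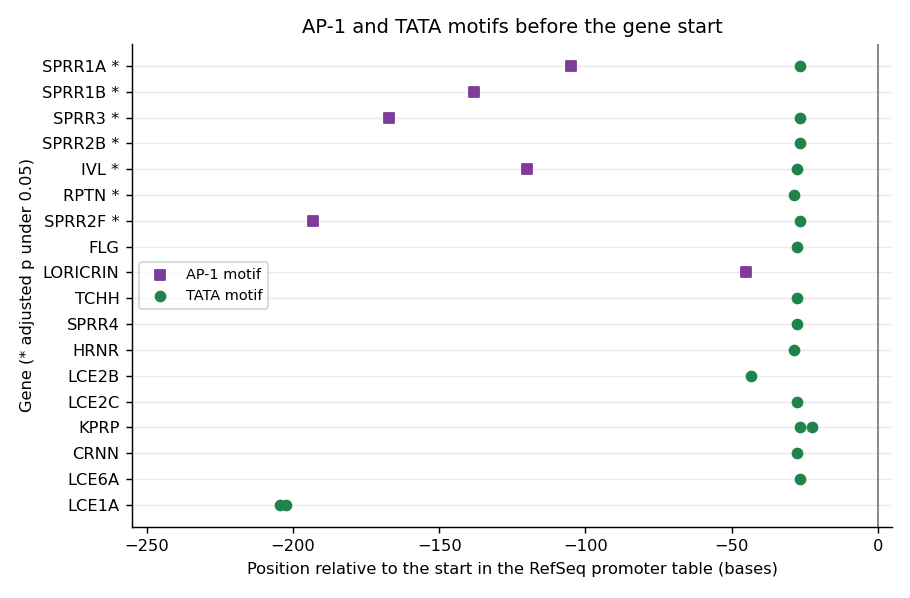
Midpoints of AP-1 (purple squares) and TATA (green circles) motifs in the 250 bases before the start (x axis, in bases), for the members that have either, ordered by the p of the comparison from top to bottom; an asterisk marks an adjusted p under 0.05. AP-1 motifs appear in SPRR1A, SPRR1B, SPRR3, SPRR2F, IVL and LORICRIN, and the TATA motifs mostly line up near the start.

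SPRR proteins are short, proline-rich crosslinking bridges of the envelope, and 7 of their 9 measured genes fell, with a median difference of -4.33. All 9 had both resistant arrays below both parental arrays. Summed over the 9 genes, the intensity was 1183 and 1219 on the 2 resistant arrays, against 52389 and 63216 on the 2 parental arrays. Most of the parental sums came from SPRR1A (25327 and 20536 on parental replicates 1 and 2) and SPRR1B (21390 and 18784). SPRR genes of 1 subfamily are near-identical in sequence and may share probe signal, so their values are not independent. In bulk RNA, fewer cells of a type and less RNA per cell cannot be told apart.

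SPRR1A, a crosslinked precursor induced in differentiating and stressed squamous cells, had log2 intensities of 4.30 and 5.62 in resistant cells, against 14.63 and 14.33 in parental cells. The difference of -9.51 ± 0.51 (± SE, n = 2 arrays per group, adjusted p = 0.0165) ranked 1 among the falls of all 15073 genes. SPRR1B, its close paralogue, had 6.63 and 5.47 in resistant cells and 14.38 and 14.20 in parental cells. Both genes were among the bright rows of the parental arrays and below the array median on both resistant arrays. The SPRR1B difference was -8.24 ± 0.45 (adjusted p = 0.0165), rank 3 among falls. As ratios these are 732-fold and 303-fold lower in the resistant cells. Both ratios, like those of SPRR3, IVL and PGLYRP3 given further on, are nominal, since the resistant values lie under the array median and a dim value has no stated bound here.

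SPRR3, the SPRR gene typical of oral and oesophageal mucosa, was 4.89 and 5.10 in resistant cells, against 8.39 and 8.52 in parental cells in its brighter row. That is a difference of -3.46 ± 0.20 (adjusted p = 0.0165), or a nominal 11.04-fold lower, and the second SPRR3 row differed by -2.38. Its resistant values lay below the array median on both arrays. SPRR4, a family member known mainly as induced by ultraviolet light, had 5.38 and 6.22 in resistant cells and 6.75 and 6.40 in parental cells, a difference of -0.77 ± 0.37 that did not pass (adjusted p = 0.270).

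The SPRR2 genes are a block of near-copies whose products join the envelope in stratified epithelia and in injured simple epithelia. SPRR2D had 8.58 and 8.12 in resistant cells and 12.0002 and 11.94 in parental cells (difference -3.62 ± 0.24, adjusted p = 0.0169). SPRR2B had 7.80 and 7.34 in resistant cells and 12.22 and 11.75 in parental cells (-4.42 ± 0.29, adjusted p = 0.0169). These 2 genes stayed above the array median on both resistant arrays, unlike SPRR1A and SPRR1B. SPRR2E had 7.23 and 6.64 in resistant cells and 11.30 and 11.23 in parental cells (-4.33 ± 0.27, adjusted p = 0.0168). SPRR2F had 6.21 and 7.47 in resistant cells and 11.35 and 11.05 in parental cells (-4.36 ± 0.49, adjusted p = 0.0321). The 4 differences ranged from -4.42 to -3.62, which is 12.3-fold to 21.4-fold lower. SPRR2C, annotated as a transcribed pseudogene, had 7.36 and 8.23 in resistant cells and 11.002 and 9.51 in parental cells. Its parental arrays differed by more than those of the other SPRR2 genes, and the difference of -2.46 ± 0.64 missed the threshold (adjusted p = 0.110) and passed with the intensity prior (adjusted p = 0.0075).

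**Figure D3:**
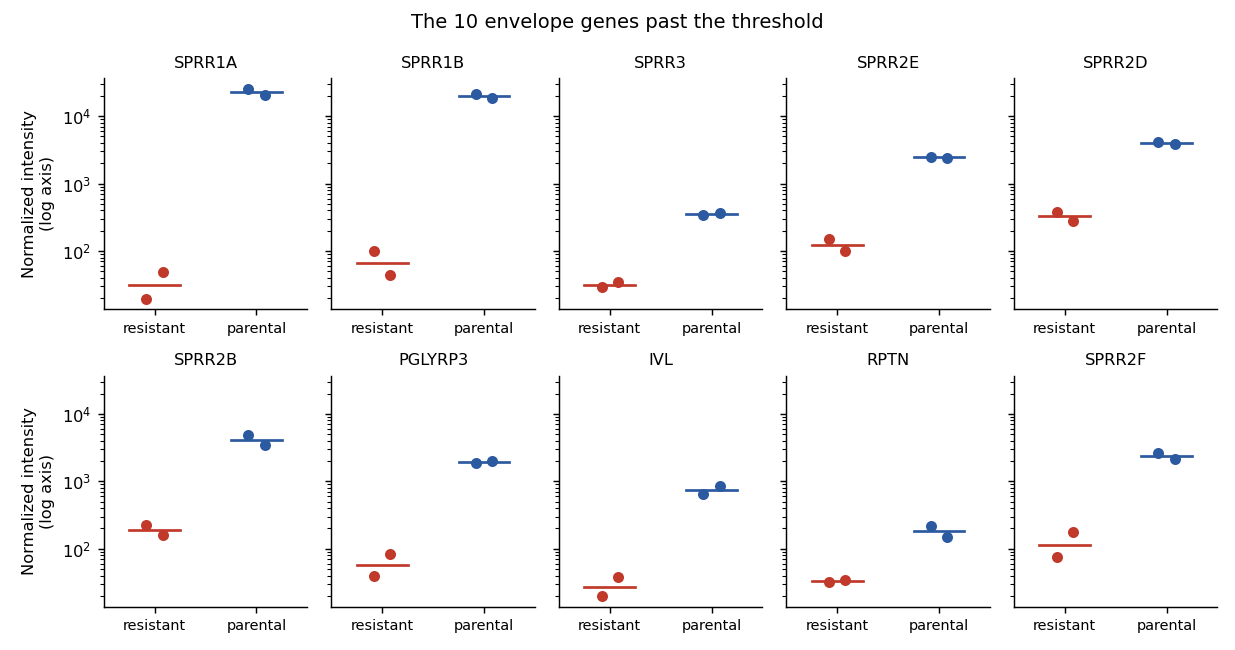
Normalized intensity on a log axis for the 10 envelope genes past the threshold, ordered by p; points are single arrays (resistant left, parental right) and the bars are means of the log2 values. In each gene both resistant arrays lie below both parental arrays, with a gap of 2.12 (RPTN) to 8.70 (SPRR1A) on the log2 scale.

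Involucrin, the scaffold protein onto which other precursors are crosslinked, fell with the SPRR genes. IVL had 4.30 and 5.26 in resistant cells, against 9.33 and 9.75 in parental cells, a difference of -4.76 ± 0.42 (adjusted p = 0.0225), or a nominal 27.0-fold lower. Loricrin, the most abundant envelope protein of the epidermis, had 5.18 and 4.67 in resistant cells and 6.33 and 6.22 in parental cells. LORICRIN was thus below the array median on all 4 arrays; its groups did not overlap, but the difference of -1.34 ± 0.26 did not pass (adjusted p = 0.0691, and 0.139 with the intensity prior).

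Among the filaggrin-type genes 1 of 5 fell. RPTN encodes repetin, an envelope protein of skin and tongue papillae. It had 5.02 and 5.12 in resistant cells, against 7.75 and 7.24 in parental cells (-2.43 ± 0.26, adjusted p = 0.0298). With 1 array left out a group has a lone array, so the RPTN call is not judged there. The RPTN difference then lay between -2.68 and -2.17. FLG, which encodes the keratin-bundling protein filaggrin, had 4.67 and 4.08 in resistant cells and 6.98 and 6.19 in parental cells. The FLG groups were separated, and the difference of -2.21 ± 0.39 missed the threshold (adjusted p = 0.0626) and passed with the intensity prior (adjusted p = 0.0349). With that prior FLG missed the threshold by row (adjusted p = 0.0966 over all rows). The FLG difference lay between -2.60 and -1.81 with 1 array left out. TCHH, which encodes trichohyalin of the hair root sheath and tongue papillae, had 4.44 and 4.85 in resistant cells and 5.40 and 5.63 in parental cells, low on all 4 arrays (-0.87 ± 0.24, adjusted p = 0.121). HRNR, encoding the filaggrin relative hornerin, differed by 1.11 ± 0.68 (adjusted p = 0.371), with overlapping groups. CRNN, which encodes cornulin of the oesophagus, differed by -0.14 ± 0.54 (adjusted p = 0.891).

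PGLYRP3 and PGLYRP4 lie side by side at the end of the set and encode secreted proteins that bind bacterial cell walls. PGLYRP3 had 5.32 and 6.36 in resistant cells, against 10.89 and 10.99 in parental cells, a difference of -5.10 ± 0.41 (adjusted p = 0.0207), or a nominal 34.2-fold lower. PGLYRP4, its neighbour, had 11.27 and 10.996 in resistant cells and 11.19 and 11.43 in parental cells. PGLYRP4 was bright on all 4 arrays with overlapping groups, and its difference was -0.18 ± 0.22 (adjusted p = 0.644). The difference between the 2 genes was not itself tested.

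Of the 14 measured LCE genes 0 rose and 0 fell by limma's test, at a median difference of 0.20 and a range of -0.89 to 1.06. Before adjustment 1 was higher (LCE1C) and 0 were lower, by the unmoderated test 0 were lower or higher before adjustment, and the intensity prior called 0. The 2 groups overlapped for 11 of the 14; LCE1C and LCE1D had both resistant arrays above both parental arrays, and LCE1B had them below. LCE1C had 5.64 and 6.16 in resistant cells and 5.12 and 5.15 in parental cells (0.77 ± 0.25, adjusted p = 0.159). For 9 of the 14 the group mean was under the array median in resistant cells, and likewise for 9 in parental cells, which limits the size of a fall that could be seen. LCE1F, bright on all 4 arrays, had 10.41 and 10.16 in resistant cells and 10.40 and 9.46 in parental cells (0.36 ± 0.39, adjusted p = 0.606). LCE genes also share sequence, and probes may cross-react within the family.

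The 4 remaining members were dim in both groups. SMCP encodes a mitochondrial capsule protein of sperm, KPRP a keratinocyte proline-rich protein, LELP1 a late envelope-like protein and CRCT1 a cysteine-rich protein. Their differences lay between -0.33 and 0.09, with overlapping groups, and 0 of 4 passed limma's test (0 also before adjustment, with the intensity prior and by the unmoderated test before adjustment). Over all members, the 10 that fell had parental means between 7.50 and 14.48, all above the array median, whereas 7 of the 26 that did not pass had a parental mean above it. A dim parental value leaves little room for a fall, so this contrast follows in part from how the 10 were selected. The 2 arrays of a group differed by a median of 0.51 in resistant and 0.67 in parental cells for the members, beside 0.26 and 0.32 over all genes.

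Along the chromosome the falls were grouped. From the TCHH end, RPTN is the single member that fell in the first 22, through the LCE block as far as SMCP. The next 10 members, from IVL to SPRR2C, hold 8 of the 10 falls, SPRR4 and SPRR2C being the exceptions, and PGLYRP3 follows. Among the 20 measured genes before TCHH 0 passed limma's test (3 lower and 4 higher before adjustment, 3 lower and 4 higher with the intensity prior, and 1 lower and 4 higher by the unmoderated test before adjustment). Among the 20 after PGLYRP4, 7 fell, and all 7 are S100 genes, among them S100A8 (-2.98 ± 0.18, adjusted p = 0.0165) and S100A14 (-3.07 ± 0.20, adjusted p = 0.0169). The flanks on both sides hold 15 measured S100 genes, of which the other 8 did not pass. Their 15 differences were below 0 for 13 and above 0 for 2. Of the 25 flanking genes outside the S100 family 0 passed limma's test (1 lower and 5 higher before adjustment, 1 lower and 4 higher with the intensity prior, and 1 lower and 4 higher by the unmoderated test before adjustment), and their median difference was -0.02. Their differences ranged from -1.06 to 1.22.

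**Figure D4:**
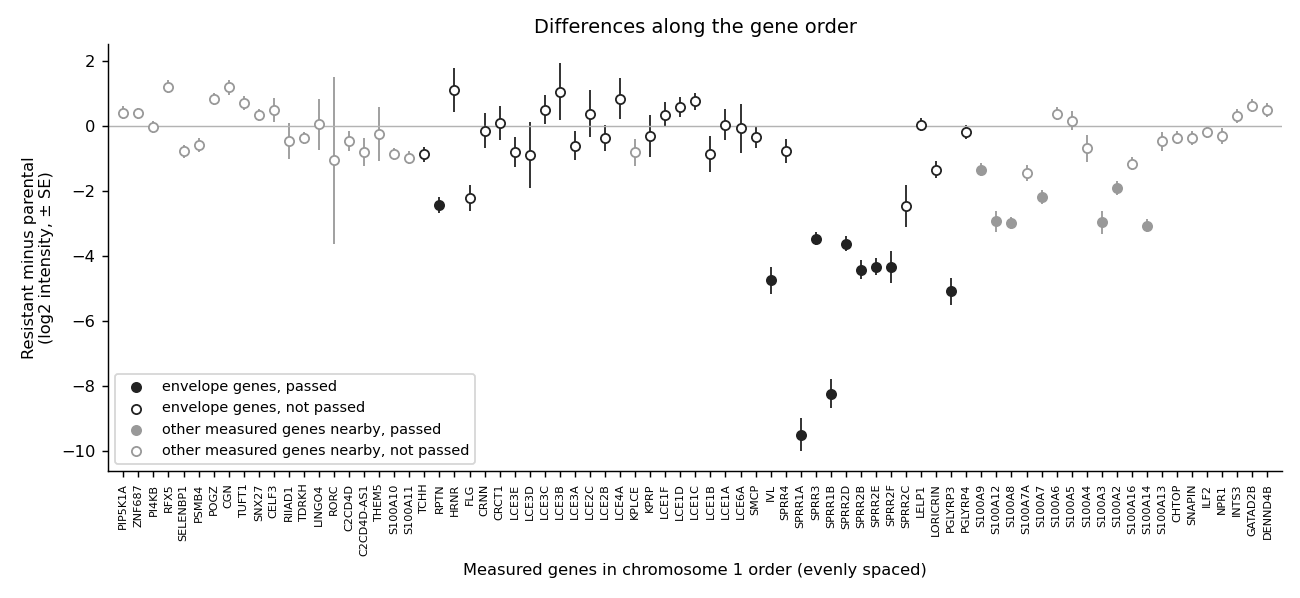
Difference between resistant and parental cells (log2 intensity ± SE, y axis) for measured genes in chromosome 1 order, evenly spaced on the x axis; black marks are envelope genes, grey marks other genes, and filled marks passed the test. The deep falls run from IVL to SPRR2F with SPRR4 between them, PGLYRP3 stands alone next to PGLYRP4, and the LCE block lies around 0.

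Partners of the envelope encoded elsewhere were read in the same fit. The counts of this and the later lists stand beside 2.83% of all genes lower and 3.26% higher in that fit. With the intensity prior those shares are 11.5% and 9.93%. Of 14 genes for other envelope and plaque proteins, 7 fell, 0 rose and 7 did not pass, at a median difference of -1.84. With the intensity prior 11 were lower and 1 was higher, CDSN (1.05, adjusted p = 0.0278), which encodes corneodesmosin. PI3, whose elafin is crosslinked into the envelope, fell with a difference of -6.19 ± 0.21, and KRTDAP (-5.27 ± 0.24) and SERPINB2 (-4.35 ± 0.23) fell with it (adjusted p = 0.0165 for each). Of 12 crosslinking and lipid enzymes of the envelope, 2 fell and 10 did not pass (6 lower and 2 higher before adjustment). With the intensity prior 5 were lower and 1 was higher, the fatty acid elongase gene ELOVL4 (2.41, adjusted p = 0.0314). TGM1, the membrane-bound transglutaminase of keratinocytes, had 6.84 and 6.32 in resistant cells and 9.28 and 9.01 in parental cells (-2.56 ± 0.27, adjusted p = 0.0299). The lipoxygenase gene ALOX12B also fell (-1.51 ± 0.22, adjusted p = 0.0473). The other transglutaminase genes of the list did not pass. TGM3 had both resistant arrays above both parental arrays (1.15 ± 0.26, adjusted p = 0.0901), and the groups overlapped for TGM5 (-0.26 ± 0.34, adjusted p = 0.663).

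Of 16 measured transcription factors of squamous cells, 5 fell, 0 rose and 11 did not pass, with a median of -1.43. With the intensity prior 9 were lower and 2 were higher, EHF (0.60, adjusted p = 0.00952) and SATB1 (2.26, adjusted p = 0.0392). Among the 5 were CEBPA (-3.37 ± 0.19, adjusted p = 0.0165) and TP63, the master factor of squamous lineages (-2.77 ± 0.24, adjusted p = 0.0221). The AP-1 subunits went both ways. JUN had 9.49 and 9.58 in resistant cells and 7.06 and 7.20 in parental cells and rose (2.41 ± 0.18, adjusted p = 0.0195). FOS had 5.86 and 6.44 in resistant cells and 8.40 and 8.82 in parental cells and fell (-2.46 ± 0.31, adjusted p = 0.0387). JUNB fell too (-1.56 ± 0.22, adjusted p = 0.0461), and the other 4 of the 7 did not pass. With the intensity prior 3 of the 7 were lower and 4 higher.

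**Figure D5:**
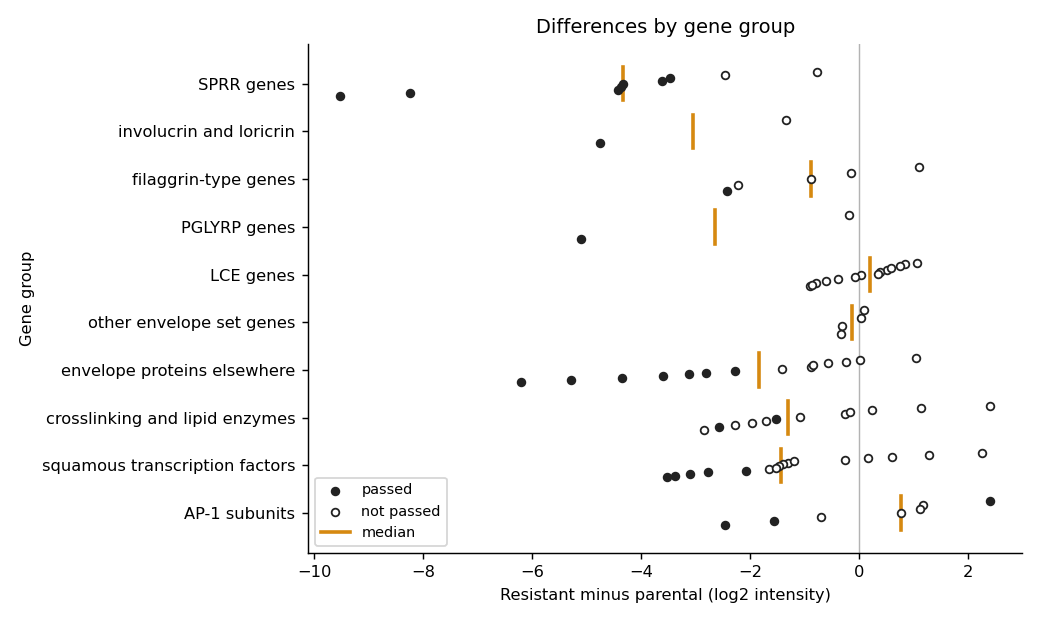
Difference between resistant and parental cells (log2 intensity, x axis) for each gene of the envelope families and of the further lists; filled marks passed the test and orange bars are medians. SPRR genes lie to the left of 0, LCE genes lie on both sides of it, and AP-1 subunits are split.

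Markers of squamous and of other cells were read on the same arrays. Of 10 squamous lineage markers 7 fell: KRT14 had 9.05 and 9.23 in resistant cells and 15.40 and 15.43 in parental cells, and KRT5 was bright on all 4 arrays, at 15.16 and 15.37 in resistant cells and 15.70 and 15.71 in parental cells (adjusted p = 0.236). Simple epithelium markers had a summed intensity of 67494.5 to 69722.6 on resistant arrays and 39325.4 to 43650.5 on parental arrays, with 1 of 10 (CLDN3, 2.66 ± 0.19) rising. KRT8 gave 26438.5 and 23785.2 of the resistant sums, and KRT18 gave 24953.5 and 27710.3. Of the 10 markers 7 had a difference above 0 and 3 below, at a median of 0.70. Before adjustment 1 was lower and 4 were higher, and with the intensity prior 0 were lower and 4 higher. Hair and root sheath markers summed to 5346 to 5372 in resistant and 1737 to 2343 in parental cells, with 1 of 16 (KRT81, 3.73 ± 0.30) rising. KRT81 alone gave 4027 and 4166 of the resistant sums, while 10 of the 16 markers had a difference below 0, the median was -0.29, and KRT31 (-2.37) was lower with the intensity prior. Fibroblast markers summed to 1717 to 2053 in resistant and 368 to 396 in parental cells, with 1 of 6 (COL1A1, 3.23 ± 0.26) rising. COL1A1 alone gave 1846 and 1546 of the resistant sums, and 4 of the 6 markers had a difference below 0, at a median of -0.17. For leukocytes the sums were 4443 to 4549 in resistant and 4062 to 4474 in parental cells, and for melanocytes 396 to 440 and 241 to 316. Of the 7 leukocyte markers 0 passed limma's test (1 lower and 1 higher before adjustment, and 1 lower and 0 higher by the unmoderated test before adjustment), and LCP1 (1.27) was higher with the intensity prior (adjusted p = 0.00287). Of the 4 melanocyte markers 0 passed (0 lower and 1 higher before adjustment, 0 with the intensity prior and 0 by the unmoderated test before adjustment). No row has a value of 0, and the part of these markers in the falls of the envelope genes was not tested.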

How the data were processed

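Total RNA of 2 cisplatin-resistant and 2 parental CAL-27 samples was measured on 1-colour NimbleGen arrays. Per the labels' protocols, cDNA was primed with oligo-dT and labelled with Cy3 on both strands, so antisense transcripts cannot be told apart. The deposited values are normalized intensity values on a linear scale (from 8.79 to 65071), made with RMA per the submitters' processing notes; version, row filter and build are not given in the sources used here. Intensities were taken to log2 without further normalization.

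Of 42152 rows, 17899 were named through the platform annotation, updated by gene ID, and 674 through RefSeq accessions. Each of 15073 genes was read from its brightest row by mean log2 value. The moderated test came from limma (3.58.1, under R 4.3.3), with lmFit, eBayes and a constant prior; p-values were adjusted by Benjamini-Hochberg across the whole table of genes or rows, at 0.05. Each difference subtracts the parental mean from the resistant mean, and SEs are moderated. Alternatives covered the prior variance, scaling, a log2 offset of 50, dim rows, rows per gene, an unmoderated test per gene (Welch), a replicate block and each array left out. The code was tested on simulated data.

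The members, lists and motifs were chosen with earlier results of these data known, so list counts are descriptions. Values on every array are given for members past the threshold and for IVL, LORICRIN and FLG; of those that did not pass, for the 4 of smallest p; of each further list up to 3 genes of smallest p are named, beside KRT5, KRT14 and TP63. HRNR, CRNN, SPRR4, PGLYRP4, LCE1B, LCE1C, LCE1D, LCE1F, CDSN, ELOVL4, TGM3, TGM5, EHF, SATB1, KRT8 and KRT18 were named after their values were seen. Neighbours were ordered by the RefSeq gene table of GRCh38, and promoters came from RefSeq.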

Additional observations from a re-analysis of the deposited data

How the results depend on the processing

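The count of 10 envelope genes lower and 0 higher also held with a robust prior, with median centring, with 75th percentile centring, with quantile normalization and with the mean of a gene's rows. It was 12 with the intensity prior and with log2(intensity + 50), and 9 of 16 when dim rows were left out, a filter that SPRR3 and RPTN did not pass and that high parental values can carry. It was 0 with the Welch test and 0 with the replicate block, a fit with a single residual degree of freedom; the replicate block with the intensity prior gave 12. Deviations of same-numbered arrays from their group means correlated at r = 0.14 over genes, which with 2 arrays per group is a single contrast. Over all rows same-numbered arrays of the 2 groups correlated at 0.906 and 0.9005, and the others across groups at 0.8954 and 0.8897. A pairing cannot be settled from these arrays, and the main fit did not use one. Leaving out 1 array gave 0 lower and 0 higher; there the lone array of a group is assumed to vary like the other group. With the intensity prior the left-out counts rest on the same assumption, by gene and by row, and are not given. The median difference of the members lay between -0.87 and -0.41 without 1 array (-0.87, -0.66, -0.54 and -0.41 without parental replicate 1, parental replicate 2, resistant replicate 1 and resistant replicate 2), and was -0.36 with the offset of 50 and -3.04 without dim rows. The median without dim rows follows in part from which members the filter kept. Of 37 member rows tested over all rows, 12 were lower with the intensity prior and 11 with the offset. The replicate block and intensity prior together gave 12. The other scalings and the robust prior gave 0. Over all 15073 genes 427 fell and 492 rose, against 1737 and 1497 with the intensity prior and 1020 and 1086 with the offset. Without dim rows 9668 genes were left, of which 1440 fell and 1311 rose. The Welch test and the replicate block gave 0 and 0, and median centring gave 507 lower and 458 higher. The differences of the 14 members tested singly kept their sign under each alternative run. Signal near the low end of the scale limits most LCE genes. The cause of each change in count was not tested.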

Other observations

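Other promoter motifs were counted in the same 250 bases before the start, on both strands. The octamer motif (ATTTGCAT, complement ATGCAAAT) was in SPRR2B and SPRR2F, whose windows both lie at a start other than the annotated gene start, in 0 of the 23 members that did not pass and in 1.66% of all promoters. The ETS motif (AGGAAG, complement CTTCCT) was in 5 of the 8 members that fell, in 15 of the 23 others and in 28.7% of all promoters. In IVL an ETS match overlaps the AP-1 match by its first base. These counts describe letters in a window, and the absence of a match says nothing of the factor.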
